A study of Homo sapiens with 23 samples.

Results

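Regions bound by SIRT1 phosphorylated at threonine 530 (pSIRT1) were compared between the early S and the G2 fraction of K562 cells, an established chronic myelogenous leukemia line. The members were chosen by library: all regions on chromosomes 1 to 22 and X of the ChIP-seq peak lists of these 2 samples, out of 23 samples in the series. There were 36314 regions in early S and 45881 in G2. A region was called shared where it had at least 1 bp in common with a region of the other list.

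Both fractions came from wild-type K562 cells for which the labels name no treatment. They were separated by elutriation, which sorts living cells by size, and both were precipitated with the same anti-pT530-SIRT1 antibody. Each fraction gave 1 library with 0 replicates, so the values describe these libraries, no test between phases was possible, and the error between cultures is unknown. The labels name randomly sheared K562 DNA as the control when peaks were called, so both lists share it. Expression markers of K562 were not measured by these lists, and gene positions of the hg19 build were not used here, so regions are given by position.

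SIRT1 is a NAD-dependent deacetylase that acts on histones and on many other nuclear proteins. The title of the series places its phosphorylated form at replication origins. Origins are licensed in G1 by loading of the MCM helicase, fire during S phase, and are kept from being licensed again in G2 until mitosis is over. Early S is thus a time of origin firing and G2 a time when replication is complete.

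The strong regions of the 2 phases were almost all the same. Of the early S regions, 29662 (81.7%, 95% interval 81.3 to 82.1) overlapped a G2 region. Of the G2 regions, 29313 (63.9%, 63.4 to 64.3) overlapped an early S region. For scale, G2 regions covered 1.72% of the 200 bp windows of these chromosomes and early S regions 0.757%. Intervals are exact Clopper-Pearson limits and cover counting error alone.

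The unshared early S regions held few reads. The early S list gives a whole number per region, taken as reads. Shared early S regions held 4845243 of its 4935710 reads (98.2%), and the 6652 regions seen in early S alone held 90467 reads (1.83%). The lists together covered 57.8 Mb, of which 17.3 Mb lay in both. This was 75.3% of the length covered in early S and 33.2% of that in G2, where regions were wider.

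Sharing rose with the value of a region in its own list. In the lowest decile of early S regions, with 8 to 10 reads each, 42.3% (40.7 to 43.9) were shared. In the fifth decile, with 19 to 26 reads, 88.2% were shared. In the top decile, from 240 to 20016 reads, 3630 of 3632 regions were shared. The G2 list holds a decimal score whose unit is not given, so it was used for ranks alone. The share in G2 ran from 22.4% (21.2 to 23.7) in the lowest decile by score to 99.4% (99.1 to 99.6) in the top decile, where 4560 of 4588 regions had an early S partner.

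**Figure D1:**
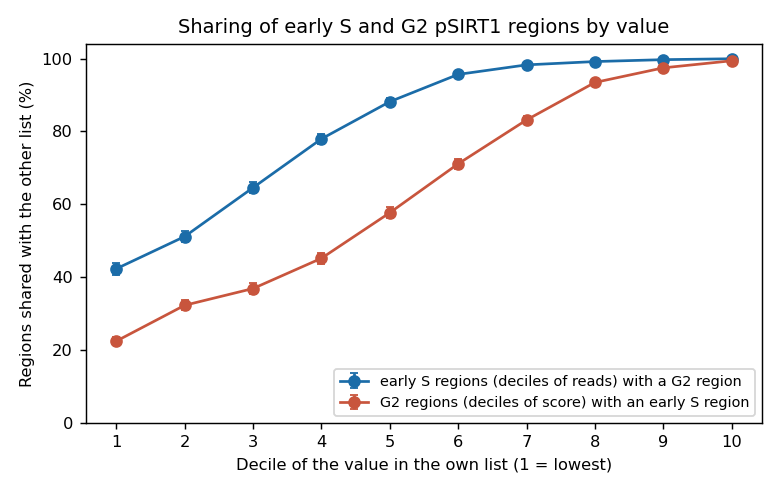
Percent of regions that overlap the other list (vertical axis) by decile of the value in the own list (horizontal axis, 1 = lowest), for early S ranked by reads and G2 ranked by score, with 95% Clopper-Pearson intervals. Early S rises from 42.3 to 99.9% and G2 from 22.4 to 99.4%.

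The best-ranked shared regions were 2200 to 6600 bp wide in early S, against a list median of 400 bp. The G2 score is capped per 200 bp of region, as described below, so only wide G2 regions can rank this high. Their width is thus partly fixed by the way they were chosen. A region at 45753401 to 45756800 of chromosome 15 held 18458 reads in early S (rank 2), and the G2 region from 45753401 to 45758800 scored 13355 (rank 15). At 41991601 to 41995800 of chromosome 1, early S counted 9408 reads (rank 16) and the G2 region around it ranked 2. At 20146601 to 20153200 of chromosome 22, early S counted 10811 reads (rank 14) and G2 ranked 18. The next were at 106028001 to 106032000 of chromosome 14 (ranks 20 and 4) and at 115017401 to 115019800 of chromosome 11 (ranks 29 and 28).

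With 5 further regions these were the 10 shared regions best placed by the worse of their ranks in the 2 lists. Chromosome 7 held 3 of them, at 76626001 to 76628600 (11450 reads in early S), 155683601 to 155685800 (8794 reads) and 155199401 to 155201600 (7497 reads). The others held 7330 reads at 50775401 to 50779400 of chromosome 22 and 8785 reads at 91984601 to 91987400 of chromosome 9. The region at 155683601 began and ended at the same bases in both phases.

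These 10 regions were also called in the other pSIRT1 fractions. Each overlapped a region of the G1, middle S and late S lists, of unfractionated K562 cells and of HCT116, an established colon carcinoma line. For the phases this was near the share in the whole top early S decile, where 98.9% of shared regions were in G1, 87.6% in middle S and 99.8% in late S. In that decile the share was lower for unfractionated K562, 78.5%, and for HCT116, 69.3%. The chromosome 15 region overlapped G1 regions with 6767 reads and late S regions with 5718. At the chromosome 1 region these counts were 627 in G1 and 8932 in late S. Nascent strands, newly made DNA that marks replication start sites, were called in early S at 0 of the 10 and in middle S at 3, on chromosomes 1, 7 and 11. Over the shared regions of the top early S decile the shares were 19.04 and 37.4%. The counts of different libraries are not scaled to each other, and local copy number was not measured in the lists used here.

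Shared regions often had the same outlines in both phases, and where these differed G2 was mostly the wider. Overlap was one-to-one in 28747 pairs, which held 96.9% of the shared early S regions and 98.1% of the shared G2 regions. In 13534 of these pairs (47.1%) the start and the end fell on the same bases. Starts matched in 65.7% and ends in 65.3%. The regions lie on a grid of 200 bp, so an exact match means agreement to the grid step. Middles were a median of 100 bp apart, and 76.0% were at most 200 bp apart.

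Shared regions covered 19.6 Mb in early S and 28.9 Mb in G2. G2 was wider in 39.4% of pairs, equal in 48.4% and narrower in 12.3%. The median ratio of G2 to early S width was 1, with the middle 50% of pairs between 1 and 2, and the mean ratio was 1.66. Median widths in these pairs were 400 bp in early S and 600 bp in G2. Early S regions lay strictly inside the G2 region in 36.5% of pairs and G2 regions strictly inside the early S region in 10.9%, while 5.50% were staggered. By decile of early S reads, G2 was wider in 53.3% of pairs in the lowest, 37.5% in the ninth and 43.0% in the top decile.

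Few regions were split between the lists. In 389 cases 1 G2 region held several early S regions, and in 98 cases the reverse. The most divided was a G2 region of 41800 bp at 36759001 to 36800800 of chromosome 19, which held 12 early S regions with 20 to 157 reads each and 630 in all. It ranked 140 by G2 score.

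Ranks agreed closely along the shared regions. Over 29215 groups of overlapping regions, the Spearman rank correlation between early S reads and G2 score was 0.873. The points share width, local copy number and the control library, so it is given as a description. Width alone gave less: in one-to-one pairs the rank correlation was 0.196 between early S reads and G2 width and 0.266 between early S width and G2 score. Among pairs exactly 200 bp wide in both lists the rank correlation was 0.891 (n = 4002), and among those of 400 bp it was 0.881 (n = 7074). By chromosome the rank correlation lay between 0.804 on chromosome 19 and 0.894 on chromosome 21.

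The range of reads differs between the upper and lower parts of the list, so their correlations cannot be compared. The rank correlation was 0.877 over pairs in the upper 50% of early S regions by reads, where reads span 26 to 20016 (n = 17289), and 0.342 over those in the lower 50%, where reads span 8 to 26 with many ties (n = 11458). Among the 860 pairs at the score ceiling described next it was 0.592. When the pairs were cut into quartile groups by each value, 66.8% fell in the same group, 97.1% in the same or a neighbouring one, and 20 pairs of 28747 in opposite ends. Of the top group by early S reads, 87.6% were in the top group by G2 score.

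The G2 score had a ceiling. No G2 score exceeded 1000 per 200 bp of region, and 864 regions (1.88%) stood exactly at that limit, to within 1e-06. They were 200 to 2200 bp wide, with a median of 200 bp, and 863 of them were shared with early S. In 860 one-to-one pairs at the ceiling, early S reads ran from 65 to 15638 with a median of 332.5, although G2 regions of equal width have equal scores there. The middle S list reached the same limit of 1000 per 200 bp.

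**Figure D2:**
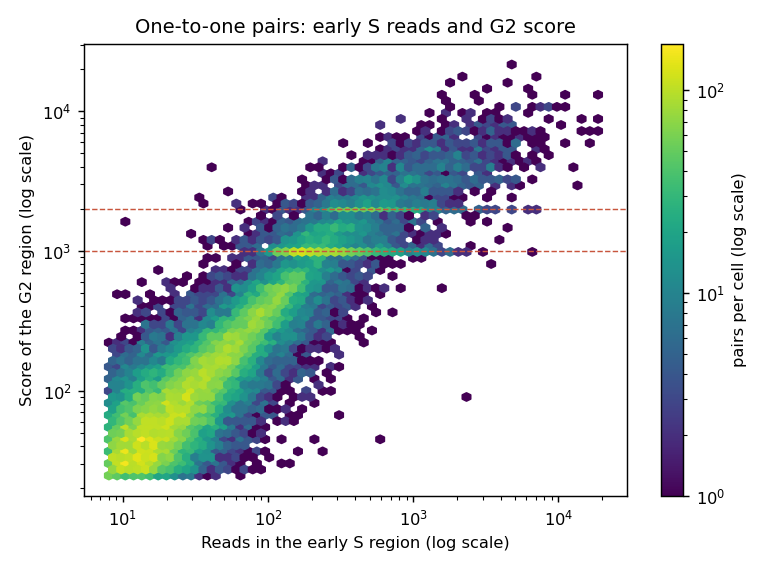
Reads of the early S region (horizontal axis, log scale) and score of the G2 region (vertical axis, log scale) for the 28747 one-to-one pairs, coloured by number of pairs. The dashed lines mark scores of 1000 and 2000, the ceiling of regions of 200 and 400 bp, along which pairs with very different early S reads line up.

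The first ranks were compared next. All of the 100 early S regions with the most reads and 98 of the 100 G2 regions with the highest score were present in the other list. However, 34 of the 100 early S regions overlapped 1 of the 100 of G2. The lowest score of these 100 G2 regions was 7544, so the ceiling kept any G2 region under 1600 bp out of them, and the number is partly fixed by the score. Ranked per kb, where the 864 G2 regions at the ceiling tie and the choice of 100 among them is arbitrary, it was 4. For the first 1000 the number was 682 (68.2%) and for the first 5000 it was 4293 (85.9%), and per kb 410 and 3932. The early S region of the highest count, 20016 at 64794401 to 64796000 of chromosome 17, had the same ends in G2 and ranked 115 there with a score of 7187, which the ceiling limits for a width of 1600 bp. The highest G2 score belonged to 228742601 to 228784200 of chromosome 1, where 2 early S regions held 4229 reads and the better ranked 157.

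The largest gaps in rank between overlapping regions came from split regions. In the 3 pairs ranked far higher in G2, the early S region held 8 to 10 reads, but the same G2 region held another early S region with 1344, 3495 and 430 reads. In the 3 pairs ranked far higher in early S, the same early S region also held a second G2 region with a score of 648 to 2000. Among one-to-one pairs, picked after their values were seen, a region at 41536801 to 41538600 of chromosome 6 had 587 reads in early S (percentile 94.6 of shared regions) and ranked 28856 in G2. A region at 105058401 to 105059600 of chromosome 14 had 2324 reads in early S (rank 320) and ranked 18689 in G2. In the other direction, 31694601 to 31695400 of chromosome 19 had 10 reads in early S (percentile 5.28) and stood at percentile 92.6 in G2.

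Early S and G2 had the highest values among the 10 pairs of pSIRT1 phases by rank agreement and by length in common. Each list enters 4 pairs and the lists differ in length and width, so the values are set side by side without a test. The rank correlation was 0.873 for early S with G2, 0.677 for middle with late S and 0.320 to 0.597 for the other 8 pairs. Length covered by both lists was 29.9% of that covered by either for early S with G2, 29.4% for G1 with late S and 6.36 to 22.3% for the others. By percent of regions shared over whole lists this pair was not the highest. G2 regions were shared with late S in 69.3%, with G1 in 65.1% and with early S in 63.9%, and 93.9% of middle S regions were in late S. With each list cut to its 25542 highest-valued regions, 80.3% of early S and 79.3% of G2 regions were shared, against 32.3 to 66.3% in the other pairs. The share of one-to-one pairs with identical ends was 47.1% for early S with G2 and 3.44 to 19.6% for the others.

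The lists also had a common shape. Median width was 400 bp in early S and 800 bp in G2, against 1600 to 2800 bp in G1, middle S and late S. Regions of at most 400 bp made up 62.3% of the early S list and 39.2% of the G2 list, but 2.80 to 10.3% of the other phases. Early S held 215 reads per kb of region, against 18.1 in G1 and 43.0 in late S. This was not computed for G2, whose list gives a score.

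Early S regions without a G2 partner were weak and not close misses. They had a median of 11 reads (middle 50%, 10 to 14) against 35 (17 to 99) for shared regions, with a median width of 400 bp in both classes. The nearest G2 region was a median of 18200 bp away. In 244 cases (3.67%) it was within 1 kb and in 4373 (65.7%) at least 10 kb away. Of these regions, 44.0% were absent from the G1, middle S and late S lists too, against 17.2% of shared early S regions. The classes lay closer among early S regions of at most 15 reads. There G1, middle S and late S held 44.0, 19.2 and 47.2% of shared and 33.2, 11.3 and 41.6% of unshared regions.

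A few early S regions without a G2 partner held many reads. The highest, at 173213401 to 173214800 of chromosome 5, counted 901 reads in early S (rank 1017), and the nearest G2 region was 15400 bp away. It overlapped regions with 34 reads in G1 and 21 in late S and none in middle S. At 159975601 to 159977000 of chromosome 4, early S counted 292 reads with the nearest G2 region 172000 bp away, and overlapping regions held 18 reads in G1 and 53 in late S. The next were on chromosome 8, at 140694401 to 140695600 with 224 reads and at 142727401 to 142728200 with 203 reads, and at 105063001 to 105064400 of chromosome 14 with 188 reads.

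Of these 5, the regions on chromosomes 5 and 4 and the first on chromosome 8 were at least 10 kb from any G2 region. A region at 124559401 to 124560000 of chromosome 10 came next by that limit. It held 162 reads in early S and overlapped none of the 13 other lists examined. A region at 41589601 to 41590200 of chromosome 3 followed with 151 reads and overlapped 7 of the 13.

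G2 regions without an early S partner were of another shape. They had a median width of 1200 bp (600 to 1800) against 600 bp (400 to 1200) for shared G2 regions, and their median score was 36.7 against 122. Regions over 1600 bp made up 29.1% of them and 15.4% of the shared G2 regions. They covered 23.3 Mb, against 28.9 Mb for the shared ones. The nearest early S region was a median of 14600 bp away, and 549 (3.31%) lay within 1 kb.

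**Figure D3:**
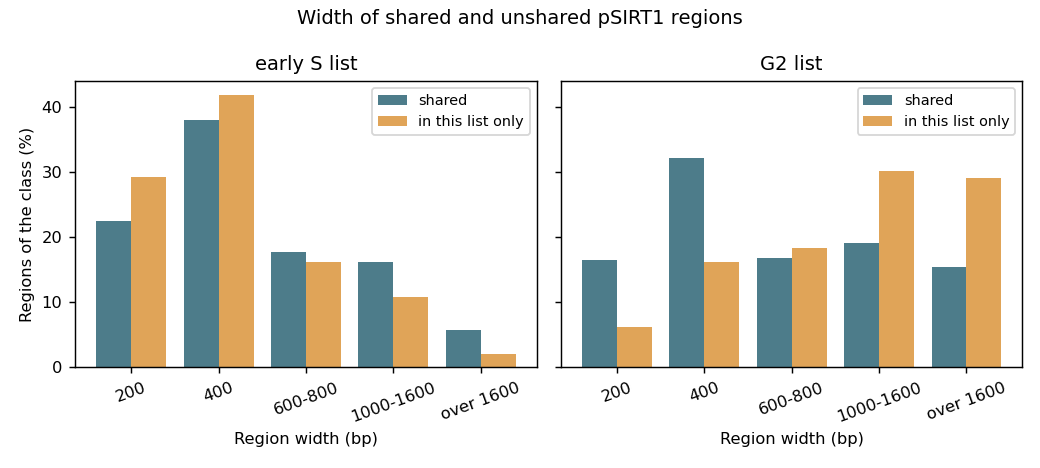
Percent of regions in 5 width classes (bp) for shared regions and regions of one list alone, in the early S list (left) and the G2 list (right). In early S both classes peak at 400 bp, whereas G2 regions without an early S partner peak above 800 bp.

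The highest-scoring G2 regions without an early S partner lay beside the longest stretch of their chromosome that is empty in all 15 lists used. The first was 65200 bp wide at 49093401 to 49158600 of chromosome 4 (rank 12), the second lay at 42354801 to 42399000 of chromosome 10 (rank 14), and the third at 49633401 to 49660200 of chromosome 4 (rank 214). The fourth, at 42596601 to 42600600 of chromosome 10, ranked 315. All 4 were within 1 Mb of such an empty stretch, and all 4 overlapped middle S regions and no G1 or late S region of pSIRT1. G2 and middle S are also the lists that hold a score, so phase and list type cannot be told apart here. The fifth, at 139503001 to 139507400 of chromosome 9, was not near it and overlapped G1 regions with 37 reads and late S regions with 158.

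Regions at 89874201 to 89880000 of chromosome 2 (rank 607) and 56436801 to 56443200 of chromosome 7 (rank 677) were the next that lay at least 10 kb from an early S region. In all, 28 G2 regions of the top decile by score had no early S partner, and 10 of these were within 1 Mb of the longest empty stretch. Among the 4560 shared G2 regions of that decile the number was 75. Over the whole list the shares near it were 1.90% for unshared and 1.24% for shared G2 regions. Within 1 Mb of a chromosome end they were 5.11 and 3.44%. The longest empty stretch ran from 0.178 Mb on chromosome 22 to 21.05 Mb on chromosome 1, so regions near it lie in unlike places.

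Sharing of G2 regions varied by chromosome more than that of early S regions. The share of early S regions with a G2 partner ran from 78.1% on chromosome 15 to 86.8% on chromosome 21. The share of G2 regions with an early S partner ran from 43.4% on chromosome 22 to 77.5% on chromosome 13. Chromosomes 17 and 19 had 51.7 and 52.3%, and chromosomes 4 and X 75.6 and 75.9%. Over the 23 chromosomes the G2 share fell with the density of G2 regions (rank correlation -0.902, a description), from 8.19 regions per Mb on chromosome 13 to 44.3 on chromosome 19.

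**Figure D4:**
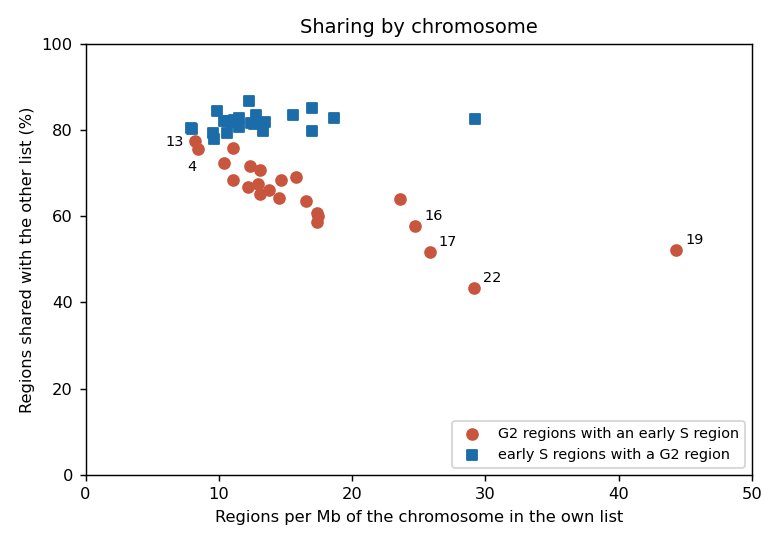
Regions per Mb of each chromosome (horizontal axis) and percent of them shared with the other list (vertical axis), 1 point per chromosome and list. Early S (squares) stays between 78.1 and 86.8%, while G2 (circles) falls to 52.3% on chromosome 19 and 43.4% on chromosome 22.

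Much of the low share on chromosome 22 came from a stretch chosen after its values were seen. The 5 bins of 1 Mb with the most unshared G2 regions in the genome lay next to each other, at 19000001 to 24000000 of chromosome 22. G2 had 574 regions there, and 88 (15.3%) were shared. On the rest of the chromosome 560 of 919 (60.9%) were shared. The same stretch held 105 early S regions, of which 98 (93.3%) were shared.

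The number of regions in this stretch differed greatly between the lists. Relative to the rest of chromosome 22, regions per Mb were 5.77 times as dense in G2 and 5.74 times in middle S, 2.19 times in unfractionated K562 cells, 1.40 times in early S, 1.16 times in late S and 0.897 times in G1. In HCT116 the ratio was 1.41. G2 and middle S, with the highest ratios, are the lists that hold a score. The order by covered length was another: regions covered 76.7% of the stretch in unfractionated cells, 58.3% in late S, 50.1% in middle S, 37.0% in G1, 32.6% in G2 and 3.10% in early S. Late S regions held a median of 309 reads in the stretch against 50 on the rest of the chromosome and G1 regions 106 against 24, while early S regions held 41 against 37. K562 is known for extra copies of the BCR-ABL1 fusion, which joins parts of chromosomes 22 and 9. Copy number was not measured in the lists used here and its part in the result was not tested. Between 133000001 and 134000000 of chromosome 9, 31 of 77 G2 regions (40.3%) and 37 of 38 early S regions were shared. On the rest of chromosome 9 the shares were 65.2% and 82.5%. Relative to that rest, regions per Mb were 7.06 times as dense in middle S, 5.49 in G2 and 3.36 in early S. The ratio was 3.03 in HCT116, 2.43 in unfractionated K562 cells, 2.35 in late S and 2.27 in G1.

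Shared early S and shared G2 regions are the same places, so the other lists overlap both alike. Of shared early S regions, 72.5% overlapped a G1 region, 32.0% a middle S region and 68.0% a late S region, and for shared G2 regions the values were 72.6, 31.9 and 68.0%. Early S regions without a G2 partner, which held fewer reads, did so in 36.6, 13.2 and 45.7%. G2 regions without an early S partner did so in 51.8, 37.8 and 71.6%, above the shared ones in middle and late S and below them in G1. With 200 bp around region middles, so that width is equal, late S held 65.8% of unshared and 64.8% of shared G2 regions and middle S 34.1 and 29.8%.

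Presence in other phases was graded with early S reads. Of shared early S regions, 8612 (29.0%) were in G1, middle S and late S as well, with a median of 124 reads. In G1 and late S alone there were 8550 (28.8%) with a median of 52 reads, and in G1 alone 4255 (14.3%) with 29. Another 5111 (17.2%) were in none of these and had a median of 16 reads. Presence in G1 rose with early S reads, from 37.0% of shared regions in the lowest decile to 98.9% in the top decile, and presence in late S from 43.0 to 99.8%. Middle S held 15.95% in the lowest decile, 28.05% in the eighth and 87.6% in the top decile. Median width also differed, from 200 bp in the lowest decile of all early S regions to 1000 bp in the top decile. It was 800 bp for shared regions in G1, middle S and late S and 400 bp for those in none. Overlap was counted over whole regions, so reads and width were not separated here.

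MCM2 belongs to the MCM helicase, and its form phosphorylated at S139 (pMCM2) was mapped in the same 5 phases. For scale, pMCM2 regions covered 4.35% of chromosomes 1 to 22 and X in G2 and 1.63% in early S. The G2 list of pMCM2 overlapped 11306 of 29662 shared early S regions (38.1%) and 1663 of the 6652 in early S alone (interval 24.0 to 26.1%), and 38.5% of shared and 21.9% of unshared G2 regions. The early S list of pMCM2 overlapped 24.3% of shared and 12.1% of unshared early S regions. Among weak regions the values lay closer together. Among early S regions of at most 15 reads, the values for pMCM2 in G2 were 24.8% for shared and 23.2% for unshared regions, and for pMCM2 in early S 13.7 and 11.1%.

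**Figure D5:**
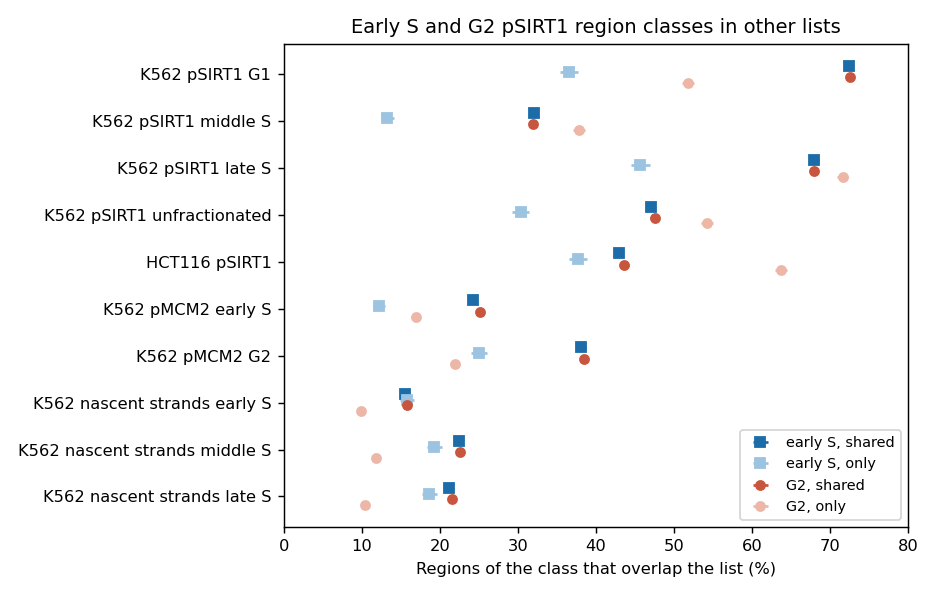
Percent of regions of each class (shared or in one list alone, for early S and G2) that overlap 10 of the other lists, with 95% Clopper-Pearson intervals. Shared regions of both phases lie together in each row, while G2 regions without an early S partner are above the other classes in HCT116 pSIRT1 and below them at nascent strands.

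Start sites separated the classes differently. For scale, nascent strand regions of early, middle and late S covered 5.84, 5.98 and 6.41% of chromosomes 1 to 22 and X. Nascent strands of early, middle and late S overlapped 15.5, 22.4 and 21.2% of shared early S regions and 15.8, 19.3 and 18.6% of those in early S alone. Among early S regions of at most 15 reads the unshared were higher in each. There the values were 12.5, 16.1 and 15.2% for shared and 14.5, 17.6 and 16.4% for unshared regions. For G2 the values were 15.7, 22.6 and 21.5% of shared regions and 9.92, 11.8 and 10.4% of unshared ones, although the unshared regions were wider. Among G2 regions with a score of at most 40, middle S nascent strands overlapped 17.9% of shared and 12.3% of unshared regions.

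HCT116 pSIRT1 gave the opposite order. It overlapped 63.7% (63.0 to 64.5) of G2 regions without an early S partner and 43.6% (43.1 to 44.2) of shared G2 regions. With 200 bp around region middles the values were 57.6 and 39.9%. Unfractionated K562 pSIRT1 overlapped 54.2% of unshared and 47.5% of shared G2 regions, and 45.6 and 42.8% with 200 bp around region middles. For early S the order was the reverse in both lists, with 37.7% of unshared and 42.9% of shared regions in HCT116, and 30.3 and 47.0% in unfractionated K562. For scale, regions of the HCT116 list covered 9.22% of chromosomes 1 to 22 and X and those of unfractionated K562 6.84%.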

How the data were processed

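The authors deposited 1 peak list per library without column names. Coordinates are on hg19, and MACS and SICER are named without versions, settings or roles, per the submitters' processing notes. For the aligner, filters and thresholds, details were not given in the sources used here. Early S and 12 other lists hold deposited whole numbers, taken from their values to be read counts per region and not scaled between libraries. In the G2 and middle S lists the authors deposited a decimal score of unknown unit, used for ranks alone. Early S held 4935710 reads in regions. Library depth is unknown.

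Of 21 lists, 15 were used. Chromosomes 1 to 22 and X were kept and starts are given 1-based. Any overlapping regions of a list were merged and their values added, and the number merged was not recorded. After this step neighbouring regions of a list were at least 800 bp apart. The span of a chromosome was the last base called in any list used. Overlap, width and rank measures were computed with Python 3.11.15, pandas 2.3.3, numpy 2.4.6 and scipy 1.17.1, and tested on simulated data. Named regions are the 10 shared regions with the best worse rank, the 5 strongest of each list without a partner, the same at least 10 kb away, and the 3 largest percentile gaps each way. Deciles are by value within a list, with ties split in order of chromosome name and position. Other named regions and the stretches of chromosomes 22 and 9 were picked after their values were seen. Lists of gene loci were not used, since no hg19 annotation was at hand. The members, lists and measures were chosen with earlier results of these data known.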

Additional observations from a re-analysis of the deposited data

How the results depend on the processing

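No paired analysis was possible because each phase has 1 library and no test was made. The share of early S regions in G2 (81.7%) and of G2 regions in early S (63.9%) moved to 81.1 and 63.4% when 50% of the shorter region had to overlap, to 82.4 and 65.1% with regions within 1 kb, to 91.4 and 72.1% in the higher-valued 50% of each list, to 74.6 and 73.6% with equal list lengths, and to 53.7 and 42.5% with 200 bp around region middles. The last setting counts as unshared any pair whose middles are 200 bp or more apart. Without positions 19 to 24 Mb of chromosome 22, an alternative chosen after seeing the data, the G2 share was 64.5%. The rank correlation between early S reads and G2 score was 0.825 per kb and 0.842 for early S regions of at most 400 bp, against 0.873, and kept its second decimal in the 4 other alternatives. The median width ratio was 1 in 4 of 4 alternatives, which shows little, since 48.4% of pairs have equal widths on the 200 bp grid. Depth per library is unknown, so no detection limit can be given for regions seen in one list alone, and with 1 library a phase the spread between cultures is unknown. Neighbouring regions are not independent, so the intervals are too narrow as a measure of biological error.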

Other observations

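Regions on chromosome Y were outside the comparison. The early S list held 202 of them and the G2 list 207, of which 162 in each overlapped the other list. The highest early S count there was 1526 reads and the highest G2 score 19512. Whether reads were placed correctly on chromosome Y was not tested.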
